A study of Mus musculus with 6 samples.

Results

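The axon guidance ligands and receptors measured here are 48 of the 16472 genes listed for HT22 cells, an immortalised mouse hippocampal line. They are the semaphorins, plexins, neuropilins, ephrins, Eph receptors, netrins, UNC5 receptors, Neo1, Slits and Robo receptors in the table. The choice went by gene symbol and was made with earlier results of these data known. The cells were treated for 16 h with AA147, a compound known to switch on ATF6, a sensor of unfolded protein in the endoplasmic reticulum, and the oxidative stress factor NRF2, or with the vehicle DMSO, and 3 mRNA libraries were made per group. The labels give the concentration of AA147 as 10 mM, a value that could not be checked against the data and whose unit may be a slip, and no genotype or other treatment is named. All libraries came from 1 cell line, and nothing in the labels says whether they came from separate cultures, so p-values measure the spread between these libraries, which may be technical. The comparison addresses which guidance transcripts differ between AA147 and vehicle.

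Guidance cues are secreted or membrane-bound ligands that attract or repel growing axons and migrating cells. Secreted semaphorins bind neuropilins, which pass the signal on through plexins, while most membrane semaphorins bind plexins directly. Ephrins and Eph receptors signal between touching cells, often in both directions. Netrins act through the DCC and neogenin receptors and, for repulsion, the UNC5 receptors. Slits bind Robo receptors. The same families also guide vessel growth and the movement of mesenchymal and tumour cells.

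All values rest on the authors' deposited table, which holds a mean over the 6 libraries, a log2 fold change with its standard error (SE) and an adjusted p for each gene, but no value for any single library. Which libraries were high or low, and whether the groups overlapped, was therefore not analysed here. The table does not name the numerator of the fold change. A positive value is read as higher with AA147, a reading that goes with the positive value of the NRF2 target Nqo1 in the authors' deposited table (0.93, SE 0.067), and every direction below depends on it. A gene is called when its adjusted p was under 0.05. The group levels given below are derived from the mean and the fold change, in normalized counts, and are not measured group means. In bulk RNA, fewer cells of a type and less RNA per cell cannot be told apart.

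Of the 70 mouse protein-coding symbols in RefSeq that fit these names, 48 were in the table and the other 22, Dcc, Robo1, Robo2 and Plxna4 among them, were not analysed here. An adjusted p was given for 41 of the 48. The 7 without one, Sema3g, Sema4g, Plxnb3, Plxnc1, Epha8, Slit1 and Slit3, had means from 1.83 to 6.55 in the authors' deposited table.

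Among the 41 genes with an adjusted p, 13 were called, or 31.7%, beside 20.2% of all 13597 genes tested. Negative calls numbered 9, or 22.0%, beside 11.1% of all genes. Positive calls numbered 4, or 9.76%, beside 9.05% of all genes. These shares are descriptions of a list of related genes, chosen with earlier results of these data known, with no test between them. The shares were also taken over genes with a mean of at least 100. There, 12 of 32 members were called (37.5%), beside 23.8% of all such genes. Of these, 9 were negative and 3 positive, where 13.1% of all genes at this mean were called negative and 10.7% positive. With an added limit of 0.5 on the size of the log2 fold change, 7 of the 41 (17.1%) were called, beside 5.85% of all genes tested. A negative fold change, called or not, was given for 35 of the 48 genes, or 72.9%, beside 48.6% of all genes. The median log2 fold change of the 41 was -0.08, against 0.01 for all genes tested.

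**Figure D1:**
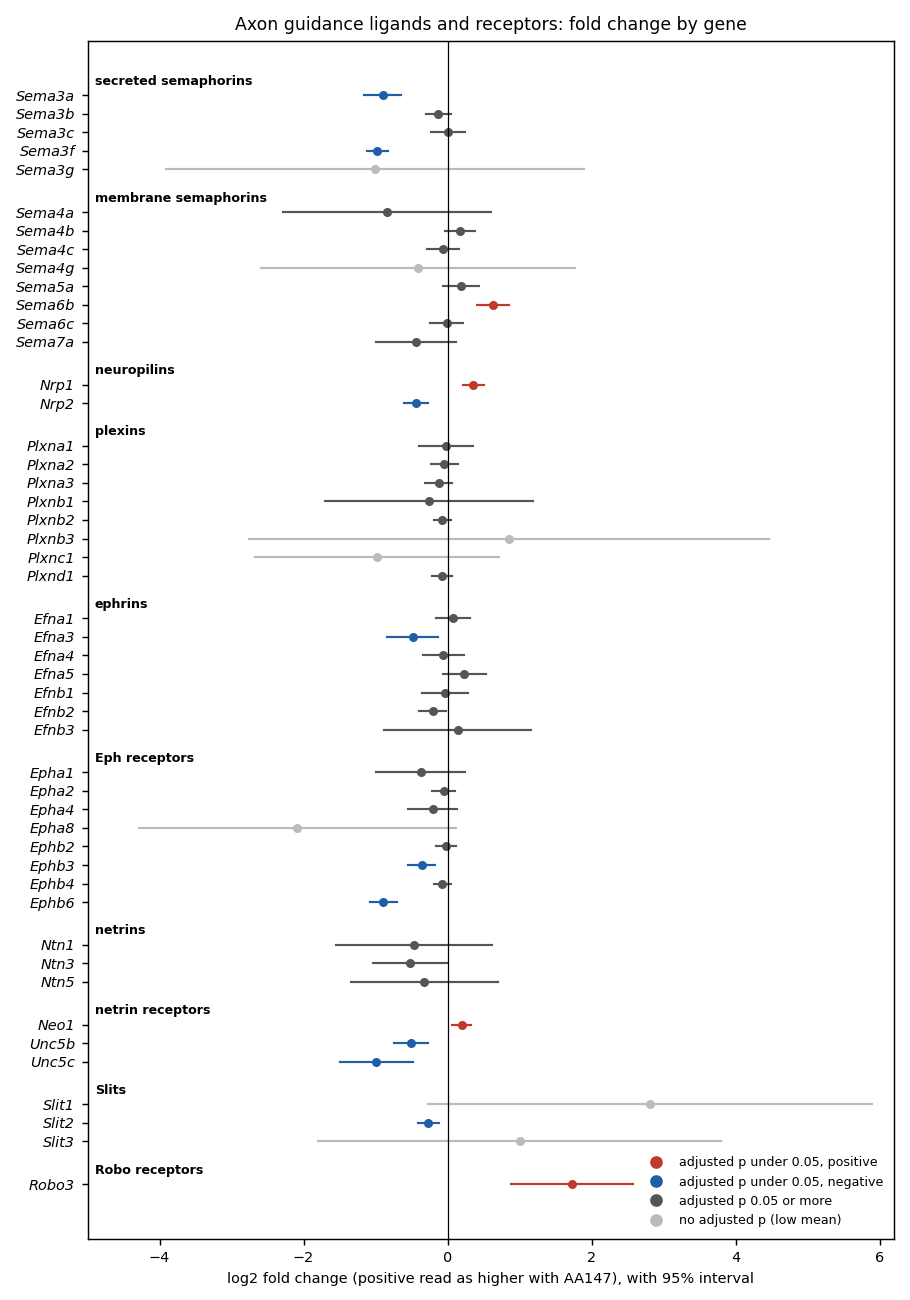
Log2 fold change of each of the 48 genes by family (dots), with 95% intervals from the authors' SEs (lines); colours mark the calls. The 2 called secreted semaphorins lie near -0.9 and -1, the 2 neuropilins lie on opposite sides of 0, and the 7 genes without an adjusted p have the widest intervals.

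The secreted semaphorins, which act as diffusible repellents, held 2 of the 9 negative calls. Sema3f, the ligand of neuropilin-2, had the smallest adjusted p of all members. Its mean in the authors' deposited table was 3628 and its log2 fold change -0.98 (SE 0.075, adjusted p 7.65e-37). The level implied was 4814 with vehicle and 2442 with AA147, and the 95% interval of the fold change ran from -1.13 to -0.83. Sema3a, the classical ligand of neuropilin-1, changed by nearly as much, with a mean of 460 and a log2 fold change of -0.90 (SE 0.13, adjusted p 1.88e-10) by the authors' deposited table. Its implied level was 600 with vehicle and 321 with AA147. Thus 2 of the 4 secreted semaphorins with an adjusted p fell (50% called, beside 20.2% of all genes). The other 2, both ligands of neuropilins, had small values with narrow intervals. Sema3b lay at -0.13 (SE 0.088, adjusted p 0.324) and Sema3c at 0.003 (SE 0.12, adjusted p 0.993) by the authors' deposited table. The interval of Sema3c, from -0.24 to 0.24, did not reach the size of the changes in Sema3a and Sema3f. Sema3g, with a mean of 1.98, was too weakly counted to compare.

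The neuropilins, the ligand-binding receptors for these semaphorins and for forms of VEGF, moved in opposite directions. Nrp1 rose, with a mean of 4015 and a log2 fold change of 0.35 (SE 0.076, adjusted p 5.16e-05) by the authors' deposited table. The implied level was 3526 with vehicle and 4505 with AA147. Nrp2 fell, with a mean of 3318 and a log2 fold change of -0.44 (SE 0.087, adjusted p 8.69e-06) by the authors' deposited table. Its implied level was 3820 with vehicle and 2817 with AA147. The fall of Nrp2 was in the same direction as that of its ligand Sema3f, and the rise of Nrp1 was opposite to the fall of its ligand Sema3a.

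The membrane semaphorins showed 1 call among 7 genes with an adjusted p (14.3%, beside 20.2% of all genes). Sema6b, a transmembrane ligand of A-type plexins, rose in the authors' deposited table, with a mean of 556 and a log2 fold change of 0.63 (SE 0.11, adjusted p 5.42e-07). The implied level was 437 with vehicle and 675 with AA147. Its relative Sema6c lay at -0.02 (SE 0.12, adjusted p 0.948) by the authors' deposited table, with an interval from -0.25 to 0.22 that did not meet that of Sema6b, from 0.41 to 0.85. Sema5a had the highest mean of the group, 1004, and a log2 fold change of 0.19 (SE 0.13, adjusted p 0.333) by the authors' deposited table. Exons of the RNA Snhg18 lie over 631 bases of Sema5a exons on the opposite strand, and the libraries were not stranded. Snhg18 itself, named because of this overlap, was called at -0.67 with a mean of 1307 in the authors' deposited table, so reads of the pair cannot be told apart there and the value of Sema5a is uncertain. Sema4b at 0.17 (SE 0.11) and Sema4c, a ligand of plexin-B2, at -0.07 (SE 0.11) were not called in the authors' deposited table. Sema7a, which is anchored by a lipid, had a mean of 71.4 and a value of -0.44 with an SE of 0.28 there, and its interval included 0. Sema4a and Sema4g had means under 10.

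None of the 6 plexins with an adjusted p was called in the authors' deposited table (0%, beside 20.2% of all genes). No plexin had an unadjusted p under 0.05 there either. The family held the most counts, which were not divided by transcript length. Plexins are large single-pass receptors whose inner domain acts on small GTPases. They made up 55.7% of the summed means of the 48 genes. Plxnb2 had a mean of 31381 and a log2 fold change of -0.07 (SE 0.062, adjusted p 0.456) by the authors' deposited table, with an interval from -0.20 to 0.05. Plxnd1 at -0.08 (SE 0.070), Plxna2 at -0.05 (SE 0.095) and Plxna3 at -0.13 (SE 0.097) were likewise small in the authors' deposited table. Plxna1 was less precise than other genes of its mean. Its mean was 12116 and its log2 fold change -0.03, but the SE of 0.19 in the authors' deposited table was 3.21 times the median SE of the genes nearest to it in mean. At 13758 bases its transcript was the longest among the 48. The interval, from -0.41 to 0.35, leaves room for a fall as large as that of Ephb3. No other member had an SE of 1.5 times that median or more, and the 13 called genes had ratios from 0.945 to 1.25. Plxnb1, with a mean of 12.4, and Plxnb3 and Plxnc1, with less, were too weakly counted to compare.

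**Figure D2:**
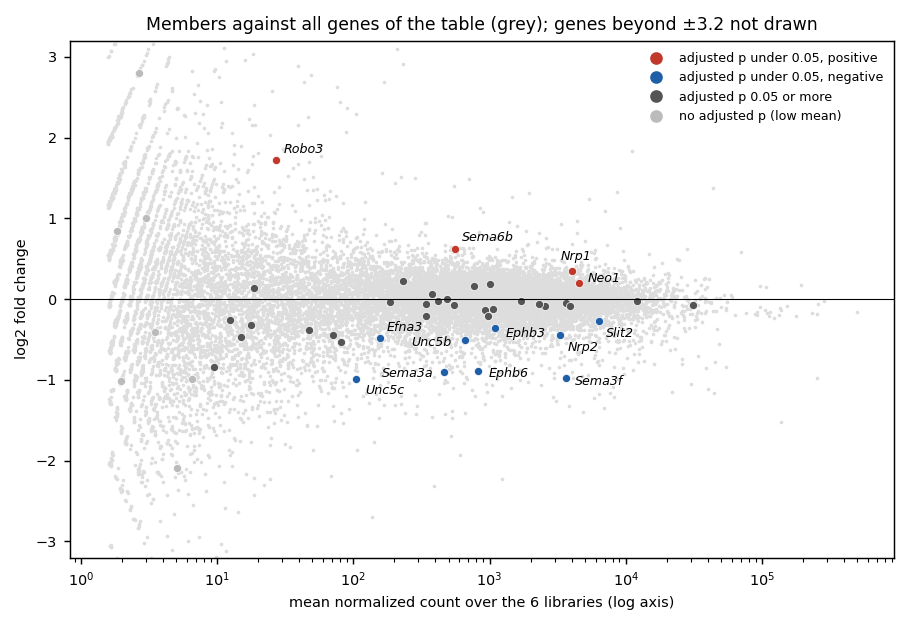
Log2 fold change against the mean normalized count (log axis), with all genes of the table in grey and the 48 guidance genes in colour by call. Sema3f and Slit2 are called at means of 3628 and 6334, and Robo3 is the only call under a mean of 100.

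Eph receptors are the largest family of receptor tyrosine kinases. In this group 2 of 7 receptors with an adjusted p were called (28.6%, beside 20.2% of all genes), both of the B class and both lower. Ephb6, which lacks kinase activity, had a mean of 825 and a log2 fold change of -0.89 (SE 0.093, adjusted p 6.42e-20) by the authors' deposited table. The implied level was 1073 with vehicle and 578 with AA147. Exons of Trpv6, on the opposite strand, cover 1112 bases of Ephb6 exons. Trpv6 was not analysed here, so its share of these reads is unknown. Ephb3 had a mean of 1092 and a log2 fold change of -0.36 (SE 0.096, adjusted p 0.00162) by the authors' deposited table, and its implied level was 1229 with vehicle and 956 with AA147. The receptors with the highest counts did not pass. Ephb4, the partner of ephrin-B2 in vessel formation, had a mean of 3875 and a log2 fold change of -0.08 (SE 0.061, adjusted p 0.41) by the authors' deposited table. Epha2, a receptor of ephrin-A1, lay at -0.05 (SE 0.082, adjusted p 0.722) and Ephb2 at -0.02 (SE 0.074, adjusted p 0.878) by the authors' deposited table. Intervals of these 3 lay within -0.21 and 0.12, which does not reach the change in Ephb3. Epha4, which binds ephrins of both classes, was given at -0.21 with an SE of 0.17 in the authors' deposited table, and its interval reached -0.55. Epha1 had a mean of 47.2, and its exons share 1456 bases with those of Zyx, with a mean of 14799, on the opposite strand, so its value of -0.38 (SE 0.32) in the authors' deposited table is uncertain. The 8 Eph receptors all had negative fold changes, called or not, beside 48.6% of all genes, and only 2 were called. Epha8, one of the 8, had a mean of 5.05 and no adjusted p. The shared sign was not tested.

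Among the ephrins, the ligands of these receptors, 1 of 7 was called (14.3%, beside 20.2% of all genes). Efna3, a lipid-anchored ligand of EphA receptors, had a mean of 157 and a log2 fold change of -0.49 (SE 0.18, adjusted p 0.037) by the authors' deposited table. Its implied level was 183 with vehicle and 131 with AA147. Exons of the RNA Gm15998, with a mean of 2.68, share 759 bases with Efna3 exons on the opposite strand. Efna3 was the call nearest to the threshold. Efnb2, the ephrin with the highest mean, 975, was nearest on the other side. Its log2 fold change was -0.21 (SE 0.097) in the authors' deposited table, with an unadjusted p of 0.0304 and an adjusted p of 0.114. Efna1 at 0.07 (SE 0.12), Efna4 at -0.06 (SE 0.14), Efna5 at 0.23 (SE 0.15) and Efnb1 at -0.04 (SE 0.16) were not called in the authors' deposited table. Efnb3 had a mean of 18.8 and an SE of 0.52.

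Of the netrin receptors, all 3 in the table were called (beside 20.2% of all genes), and they did not move together. The UNC5 receptors, which turn netrin into a repulsive cue, both fell. Unc5b had a mean of 665 and a log2 fold change of -0.51 (SE 0.12, adjusted p 0.000264) by the authors' deposited table, with implied levels of 781 for vehicle and 548 for AA147. Unc5c was weaker in count, with a mean of 105, and had a log2 fold change of -0.99 (SE 0.26, adjusted p 0.00151) by the authors' deposited table. Its implied levels were 139 and 70.0, and its interval from -1.50 to -0.48 overlapped that of Unc5b, from -0.74 to -0.28. Neo1, which encodes neogenin, a relative of DCC that binds netrins and repulsive guidance molecules, rose slightly. Its mean was 4508 and its log2 fold change 0.19 (SE 0.066, adjusted p 0.0206) by the authors' deposited table, with implied levels of 4206 for vehicle and 4811 for AA147. The netrins themselves were scarce and none was called. Ntn3 had the highest mean, 81.1, with a log2 fold change of -0.53 (SE 0.26, unadjusted p 0.0452, adjusted p 0.152) by the authors' deposited table. Its exons share 168 bases with Tbc1d24 on the same strand. Ntn1 and Ntn5 had means of 14.9 and 17.7 and SEs of 0.55 and 0.52.

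Slit2, a secreted repellent that binds Robo receptors, fell. Its mean was 6334 and its log2 fold change -0.27 (SE 0.077, adjusted p 0.00451) by the authors' deposited table. The implied level was 6921 with vehicle and 5746 with AA147. Robo3 was the only Robo receptor in the table. It is a divergent member of the family, known from axons that cross the midline. It had the largest fold change of all called members, a log2 value of 1.72 (SE 0.43, adjusted p 0.000833) by the authors' deposited table. That rise rests on low counts: its mean was 27.1, the implied levels were 12.6 with vehicle and 41.6 with AA147, and the interval ran from 0.87 to 2.57. Slit1 and Slit3 had means of 2.68 and 3.03 and no adjusted p.

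**Figure D3:**
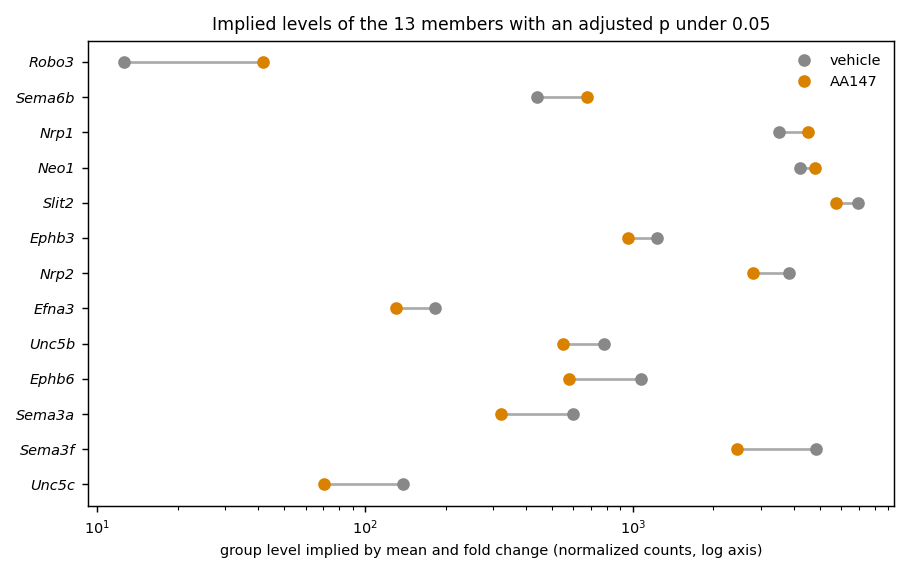
Group levels implied by the mean and the fold change for the 13 called genes (normalized counts, log axis), grey for vehicle and orange for AA147, ordered by fold change. The 4 genes at the top are higher with AA147 and the 9 below are lower; Robo3 has by far the lowest levels among the rises.

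The genes that were not called divided by precision. Of the 20 uncalled members with a mean of at least 100, 18 had a 95% interval within 0.5 of 0 on the log2 scale, and the exceptions were Efna5 and Epha4. Of the 16 members with a mean under 100, 1 was called and 7 had no adjusted p, so could not be called. Over all genes tested, at any mean, 20.2% were called. The SEs of the 16 members ran from 0.26 to 1.84. Changes of the size seen in Sema3a or Ephb6 were therefore not detectable in many of them at these counts.

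Levels are compared between genes here after division by transcript length, as mean normalized counts per kilobase over all 6 libraries. The rankings by mean given above were not divided by length and can differ. Sema5a, the membrane semaphorin of highest mean, was at 92.5 per kilobase, under Sema4b at 202. On the scale per kilobase Plxnb2 stood first at 4692, above 97.9% of genes of known length. Sema3f followed at 1068 and Neo1 at 1014, then Ephb4 at 889, Plxna1 at 881, Nrp1 at 782 and Slit2 at 636. The order of Neo1 depends on its transcript, since the longest one gives 576. Epha2 at 588, Nrp2 at 491 and Plxnd1 at 351 completed the first 10. Of these 10 genes, 5 were called, beside 23.8% of all genes with a mean of at least 100. Sema3f was thus both the most abundant ligand per kilobase and the one with the smallest adjusted p, whereas Sema3a, with a similar fold change, was at 61.8 per kilobase. Among ephrins Efna1 at 256, Efna4 at 208 and Efnb2 at 195 lay close together, and Efna3 was lower at 66.3. Netrins did not exceed 16.1, far under their receptor Neo1.

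**Figure D4:**
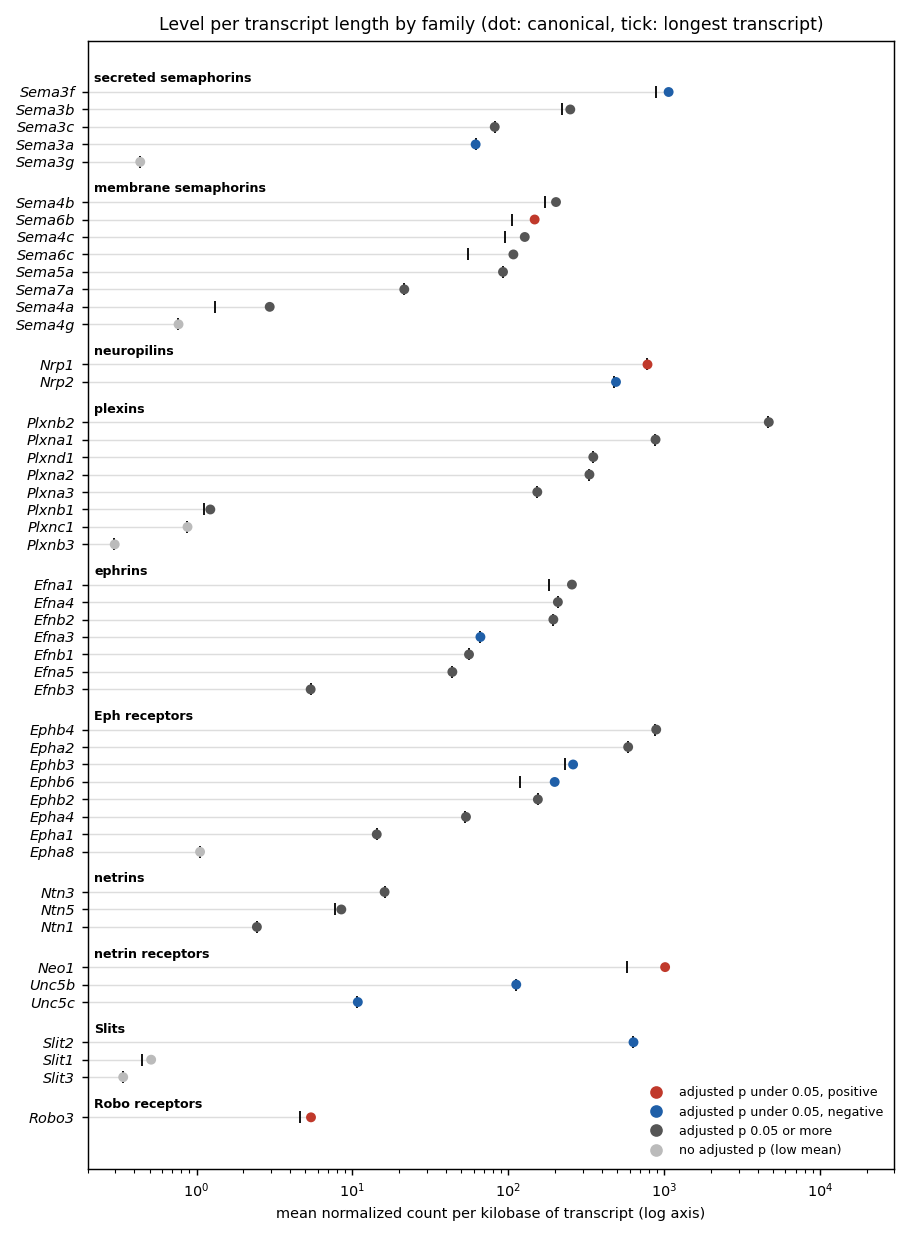
Mean normalized count per kilobase of transcript (log axis) for each gene, ordered within its family; dots use the canonical and ticks the longest transcript. Plxnb2 stands highest at 4692 and Plxnb3 lowest at 0.299. The netrins, Robo3, Slit1 and Slit3 are low, and so are members of other families, such as Sema3g, Sema4g, Plxnc1 and Epha8.

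Promoters were searched for stress response elements, among them those of NRF2 and ATF6, on which AA147 is known to act. RefSeq windows of the 250 bases before the start were found for 42 of the 48 genes, in 52 windows, and for 12 of the 13 called genes. No window was listed for Sema3f, Sema3b, Plxna1, Efnb3, Ntn1 and Slit1. The antioxidant response element core bound by NRF2, TGACNNNGC on either strand, was in 6 of the 52 windows (11.5%), beside 11.7% of 14047 windows of genes in the table. It was in 0 of the 12 called genes with a window. The endoplasmic reticulum stress element of ATF6, CCAAT and CCACG with 9 bases between them, was in 0.157% of all windows, the unfolded protein response element TGACGTGG in 0.726% and the amino acid response element TGATGNAAN in 2.24%, and none of the 3 was in a window of these genes. The antioxidant core and the unfolded protein response element begin with the same letters and can overlap. A match of letters is no binding site, and its absence concerns this window only.

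Efnb2 held 3 matches to the antioxidant core, the most of any member. It is shown for that reason, by a choice made after its values were seen. Its transcript was not called in the authors' deposited table (unadjusted p 0.0304, adjusted p 0.114), and 1 such window says nothing about whether the element goes with a change. The window lies at chr8:8661243-8661492 on the minus strand of GRCm38.p6, 5′ to 3′ and ending at the base before the start, with the matches in capitals.
Efnb2: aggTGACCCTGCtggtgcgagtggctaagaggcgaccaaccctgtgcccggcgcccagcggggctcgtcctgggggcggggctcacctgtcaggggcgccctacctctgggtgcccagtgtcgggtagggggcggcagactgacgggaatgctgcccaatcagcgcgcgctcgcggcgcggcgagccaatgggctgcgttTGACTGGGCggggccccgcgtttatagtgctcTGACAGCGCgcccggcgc
The other 5 genes with 1 match each were Efna5, Plxnb3, Sema3g, Sema4a and Sema7a, and none of them was called.

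Other genes of the pathway were taken from lists of further cues and co-receptors, of intracellular effectors and of proteases that shed these proteins. Of 27 further cues and co-receptors, 11 were in the table and 8 had an adjusted p, of which 2 rose and 2 fell (50%, beside 20.2% of all genes). Rtn4, which encodes the growth inhibitor Nogo, rose with a log2 fold change of 0.62 (SE 0.055, adjusted p 8.61e-28) by the authors' deposited table. This value is for the gene as a whole and does not separate its transcripts. Rtn4r, Rtn4rl1, Rtn4rl2 and Lingo1, of the same list, were not in the table. Gpc1, a heparan sulfate proteoglycan that binds Slits, rose by 0.38 (SE 0.062, adjusted p 3.12e-08) by the authors' deposited table. Cdon, a hedgehog co-receptor that also binds neogenin, fell by 0.71 (SE 0.12, adjusted p 1.17e-07) and Rgma, a ligand of neogenin, by 0.29 (SE 0.071, adjusted p 0.000484) by the authors' deposited table. Neogenin and its ligand RGMa thus had calls of opposite sign.

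Among the intracellular effectors, 49 of 54 were in the table and 48 had an adjusted p, of which 5 rose and 7 fell (25.0%, beside 20.2% of all genes). Their median log2 fold change was 0.02. A mean of at least 100 was given for 45 of the 49, and 23.8% of all genes at that mean were called, a share near that of the effectors. Ngef, the exchange factor ephexin that works under EphA receptors, had the largest value, 2.29 (SE 0.24, adjusted p 5.39e-19), at a mean of 105 in the authors' deposited table. Ssh1, a cofilin phosphatase, rose by 0.30 (adjusted p 0.0272) and Limk1, the kinase of cofilin, by 0.24 (adjusted p 0.00641) by the authors' deposited table. Ablim1, an actin-binding protein linked to netrin signalling, fell by 0.67 (adjusted p 7.13e-12), Rras, a GTPase inactivated by plexins, by 0.58 (adjusted p 1.10e-08) and Pak1, a kinase under Rac and Cdc42, by 0.55 (adjusted p 1.42e-13) by the authors' deposited table. The GTPases Rhoa, Rac1 and Cdc42 and the actin-severing protein Cfl1 were not called. Of the 6 shedding proteases, Mmp2 fell by 0.30 (SE 0.061, adjusted p 2.64e-05) by the authors' deposited table, and Adam10, which cleaves ephrins, lay at -0.03 with an adjusted p of 0.819.

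**Figure D5:**
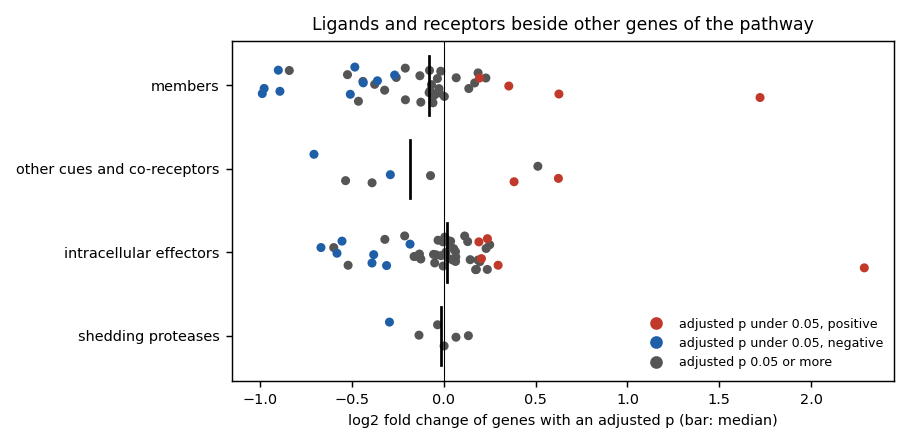
Log2 fold changes of the guidance ligands and receptors with an adjusted p and of the lists of other pathway genes, coloured by call, with a bar at each median; points are spread vertically only for legibility. The medians lie near 0 for effectors and proteases, and Ngef is the point at 2.29.

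The label of hippocampal neurons was set against markers. Of 13 neuronal markers, 4 were in the table: Tubb3 with a mean of 1199 and Syn1 with 562, and Stmn2 and Slc17a7 with 6.24 and 3.93 in the authors' deposited table. Tubb3 rose, with a log2 fold change of 0.43 (SE 0.092, adjusted p 5.67e-05) by the authors' deposited table, opposite to the 9 guidance genes called negative, and Syn1 at 0.13 (adjusted p 0.558) was not called. Rbfox3, Map2, Snap25, Syt1, Dcx, Nefl, Nefm, Gap43 and Gad1 were not among its rows. Of 9 fibroblast or mesenchymal markers 8 were in the table, with means from 76.9 to 254004. Their calls were negative for 6 (75%, beside 11.1% of all genes) and positive for 0, with a median log2 fold change of -0.89. Astrocyte, oligodendrocyte, microglial and endothelial markers had 8 genes in the table, all but Slc1a3 with a mean under 50. Of these, Slc1a3 at -1.30 and Csf1r at 0.95 were called in the authors' deposited table. The 6 called mesenchymal markers moved in the direction of the 9 guidance genes called negative. Fn1 at -0.11 (adjusted p 0.385) and Postn at 0.12 (adjusted p 0.812) were not called in the authors' deposited table. Tubb3 moved in the direction of the called rises Nrp1, Neo1, Sema6b and Robo3. Stmn2 at -1.53 and Slc17a7 at -1.98 lay the other way, at low means and without an adjusted p. The called guidance genes held both signs, so any called marker shares the direction of some of them, and these matches carry no weight. The part of these markers in the changes of the guidance genes was not tested.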

How the data were processed

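Transcripts of 6 HT22 libraries were compared, 3 after AA147 and 3 after vehicle. The submitters' processing notes name DESeq2 and the mouse build mm9. The aligner, read counter, annotation and filters are not given in the sources used here. Per the labels' protocols the libraries were not stranded.

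Only the authors' comparison was used, with 1 line per gene. The authors deposited a mean normalized count, which is a signal averaged over the libraries after scaling. The authors deposited a log2 fold change and its standard error (SE) on the log2 scale. A score, the Wald statistic, was also deposited, and it equalled the log2 fold change divided by the SE to within 3.06e-07. The deposited adjusted p-values matched a Benjamini-Hochberg adjustment over 13597 genes to within 7.58e-07. The other 2875 genes had none. Library depth is unknown, and the means summed to 30768012.

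A gene was called at an adjusted p under 0.05. Intervals of 95% were the fold change plus and minus the normal quantile times the SE. Group levels were derived from the mean and the fold change for groups of equal size. SEs were compared with the median of the 501 genes nearest in mean. Lengths came from GENCODE M39 (GRCm39) by symbol, for 82.0% of genes and all 48 members, and exon overlaps from the same annotation. Further overlaps, among them noncoding RNAs opposite the called Nrp1, Nrp2, Neo1 and Unc5c, are not described singly. Promoter windows came from RefSeq (GRCm38.p6). No coordinates of the counts are given, since mm9 was not used here.

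The genes described singly are the called members, the member of highest mean in each family, members with a mean of at least 100 and a log2 fold change of 0.3 or more in size, and up to 3 called genes per direction in each list of other pathway genes. The remaining members are given for completeness. The members, lists and rules were chosen with earlier results of these data known. Recomputed adjustments were tested on simulated data. The work used Python 3.11.15, pandas 2.3.3 and SciPy 1.17.1.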

Additional observations from a re-analysis of the deposited data

How the results depend on the processing

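No paired analysis was possible because the deposited comparison gives 1 line per gene and no library by itself. A refit with another tool, other normalizations, a replicate block and leaving out each replicate were not run, since they need the same values. The 13 called members numbered from 11 to 13 at an adjusted p under 0.01, with Benjamini-Hochberg over every gene with a p, with only genes of a mean of at least 10 or 100, centred on the median of abundant genes, and with RefSeq coding symbols only. The last setting could not change the count, since all 48 members are coding symbols. By stricter construction, 7 were left when the log2 fold change also had to be 0.5 or more in size, 1 (Robo3) when it had to be 1 or more, and 6 with a Bonferroni adjustment (Sema3a, Sema3f, Ephb6, Nrp2, Sema6b and Nrp1). Of the intracellular effectors, 12 were called, and 5 at an adjusted p under 0.01. All 18 named members kept their sign and their side of the threshold when centred and when adjusted over every gene. Both steps alter the values little, so few of these calls could have changed. Centring subtracted 0.01 and changed the sign of 1 of the 48 members, Sema3c. Per kilobase of the longest in place of the canonical transcript, Neo1 went from 1014 to 576 and Sema3f from 1068 to 881, and the 10 highest members stayed the same 10. Precision was lowest for the 16 members with a mean under 100, whose SEs were 0.26 to 1.84, and low depth and low expression cannot be told apart there.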
